A study of Mus musculus with 18 samples.

Results

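The comparison described here set the cerebral cortex of mice that had slept again after sleep deprivation against the cortex of mice left undisturbed. It rests on 6 of the 18 arrays of the series, 3 labelled recovered and 3 labelled control, chosen by their titles. The recovered group was 9 male C57BL/6J mice kept awake for 6 h and then allowed to recover. The source labels give 18 h of recovery and the treatment protocol 24 h, and the design has these mice sampled 1 day later, at the hour at which wakefulness had been started. A further group of 9 male C57BL/6J mice was taken straight after 6 h of sleep deprivation, and its 3 arrays helped to estimate the spread. The control group was 9 male C57BL/6J mice left in the home cage. The RNA of 3 mice was combined for each array, so an array is a pool and p-values measure the spread between pools. Ages and the clock time of control sampling are not in the sources used here, so treatment and time of day cannot be told apart. The other 9 arrays, of cortical cultures, entered 1 alternative fit and the choice between probe sets of the same gene.

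Wakefulness in the cortex is accompanied by transcription of activity-regulated genes, which neurons switch on when they fire, and of chaperones that fold proteins. Sleep returns many of these transcripts towards their resting level within hours. The circadian clock, a feedback loop in which CLOCK and ARNTL drive the Per and Cry repressors, runs in cortical cells beside this and shares some target genes, such as Per1 and Dbp, with the response to wakefulness.

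The labelled tissue was checked against defining genes. Over the 6 arrays the log2 signal of Camk2a, a kinase of excitatory neurons, was 12.81 to 12.83, and that of Slc17a7, their vesicular glutamate transporter, was 11.97 to 12.36. Gad1, the GABA-synthesizing enzyme of interneurons, read 10.96 to 11.14, and Mbp, the myelin basic protein gene, read 11.46 to 11.56. These genes lay between the 97.6th percentile of all genes on the cortex arrays (Gad1) and the 99.9th (Camk2a). Other defining genes of cortical cells lay lower, at percentile 91.3 (Tbr1), 91.0 (Gad2), 86.6 (Neurod6), 85.6 (Aqp4) and 68.9 (Gfap). Genes taken here as markers of other tissue lay at 88.2 (Ppp1r1b, striatum), 75.8 (Drd2, striatum), 74.1 (Ttr, choroid plexus) and 46.6 (Prox1, hippocampus). Whether cortical cells also express them was not tested. Ppp1r1b thus lay above Neurod6, Aqp4 and Gfap. Some markers of tissue next to the cortex were less even between pools. Transthyretin (Ttr), made by the choroid plexus, read 7.19, 6.92 and 9.35 in the recovered pools, against 7.83, 10.41 and 7.10 in the control pools. The dopamine receptor gene Drd2, a striatal marker, read 8.93, 7.66 and 9.04 in the recovered pools, against 8.94, 8.90 and 8.95 in the control pools. The groups overlapped in both genes. Recovered pool 2 was the lowest of these 6 for Drd2, and without it the Drd2 difference was 0.06 in place of -0.38 on the log2 scale. In RNA of whole tissue, fewer cells of a type and less RNA per cell cannot be told apart.

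Of 14807 genes, limma called 0 between recovered and control cortex at an adjusted p under 0.05 (0%), and 427 had an unadjusted p under 0.05 (2.88%), 256 of them higher in recovered cortex (1.73%) and 171 lower (1.15%). A uniform spread of p-values would give 740.35 such genes. The count of 427 became 738 without recovered pool 2 and 800 without control pool 3. The 3 recovered pools lay wholly above the 3 control pools in 517 genes (3.49%) and wholly below them in 271 (1.83%), which is 788 genes without overlap in all (5.32%). The 2 comparisons that include the sleep-deprived pools gave 241 calls (1.63%) against control and 334 calls for recovered against sleep-deprived cortex (2.26%), in the same fit. The median absolute difference was 0.040 on the log2 scale in recovered against control cortex, 0.059 in sleep-deprived against control cortex and 0.067 in recovered against sleep-deprived cortex.

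The median absolute log2 difference between a recovered and a control array averaged 0.0714 over 9 pairs, with a range of 0.0489 to 0.102. Between 2 arrays of the same group it averaged 0.0741 over 6 pairs, with a range of 0.0425 to 0.0910. The distance between the groups less that within them was -0.0027, and it was 0.0015 without recovered pool 2, so its sign rests on that pool. The 6 arrays allow 20 splits and an exact permutation p of at least 0.1, so this difference could not be tested at 0.05. Sleep-deprived and control arrays averaged 0.0804 apart over 9 pairs, and this distance was not tested.

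An absent call does not bound a difference, so each gene was also tested against fixed bounds, with a pair of one-sided limma tests and an adjusted p under 0.05. By this test 14242 genes (96.2%) were held within 1.5-fold of control in recovered cortex. Within 2-fold 14702 genes (99.3%) were held, and within the tightest bound, 0.32 log2 units, 12680 (85.6%). The 95% interval of a gene reached a median of 0.14 to either side of its difference on the log2 scale, which is 1.10-fold. When the intervals were widened so that all 14807 hold together, the median reach was 0.69, or 1.61-fold, and 10512 genes still lay within 2-fold.

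The strength of these bounds followed the signal. Genes were put into 4 classes of equal size by mean signal. In the dimmest class, with a median log2 signal of 4.40, 86.5% were held within 1.5-fold and 61.5% within 0.32 log2 units. A dim probe set can lie within a bound because its signal is near background. The 3204 genes of this class held within 1.5-fold are thus not shown to have returned to control. In the brightest class, with a median of 9.63, the shares were 99.9% and 98.1%. Of the 565 genes not held within 1.5-fold, 498 were in the dimmest class and 9 in the brighter 2 classes. Equal values also enter here: the deposited table gave 8144 genes (55%) the same value on 2 or more of the 9 cortex arrays. Their median standard error was 0.050, against 0.076 for the 6663 genes with 9 different values, of which 92.3% were held within 1.5-fold.

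**Figure D1:**
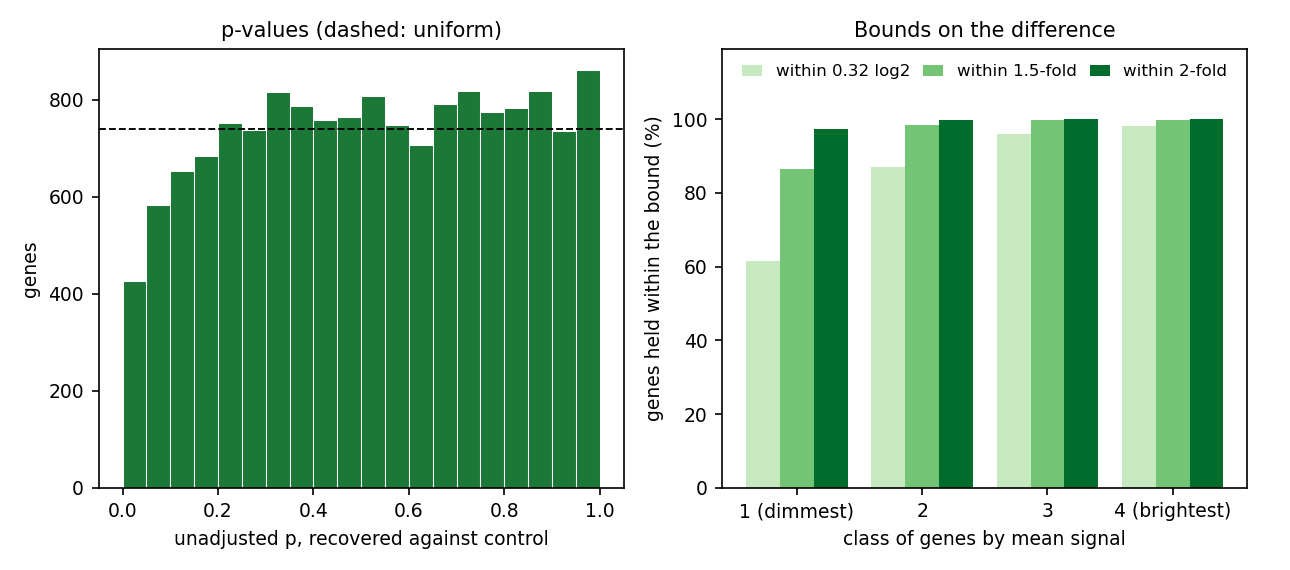
Left, number of genes by unadjusted limma p in recovered against control cortex, in steps of 0.05, with the count of 740.35 that a uniform spread would give as a dashed line; the lowest step holds 427 genes. Right, share of genes held within 3 bounds, the tightest of 0.32 log2 units and then 1.5-fold and 2-fold, of control, by class of mean signal; the share within 1.5-fold is 86.5% in the dimmest class and 99.9% in the brightest.

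Observed differences beyond 1.5-fold were found in 44 genes, 29 higher and 15 lower in recovered cortex, and 38 of these were in the dimmest class. Receptor genes of smell, pheromone detection and taste, whose signals were low in cortex (median log2 signal 3.51), made up 834 of all genes and 27 of the 44. Among the 834, 66 had an unadjusted p under 0.05 (7.91%), against 361 of the other 13973 genes (2.58%). The largest difference upwards was that of the odorant receptor gene Olfr715, at 3.55, 4.55 and 4.45 in the recovered pools, against 3.20, 2.33 and 3.75 in the control pools, so the groups overlapped (1.09 ± 0.44, SE of the fit). The largest downwards was that of Taar7b, a trace amine receptor gene, at 6.04, 7.44 and 5.33 in the recovered pools, against 7.79, 7.95 and 6.82 in the control pools (-1.25 ± 0.57). In both genes the groups overlapped, and neither passed. The next by size were Olfr204 (1.01 ± 0.44), 4930503B20Rik (0.86 ± 0.23), Vmn1r232 (0.81 ± 0.28) and Olfr1102 (0.78 ± 0.38) on the higher side. On the lower side they were Olfr726 (-0.97 ± 0.27), the bright gene Chl1, Olfr459 (-0.90 ± 0.53) and Olfr483 (-0.81 ± 0.16). All of these but Chl1 were in the dimmest class. Single pools moved several values: Taar7b was -0.78 without recovered pool 3, Olfr715 was 0.71 without control pool 2, and Olfr459 was -0.23 without recovered pool 3.

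**Figure D2:**
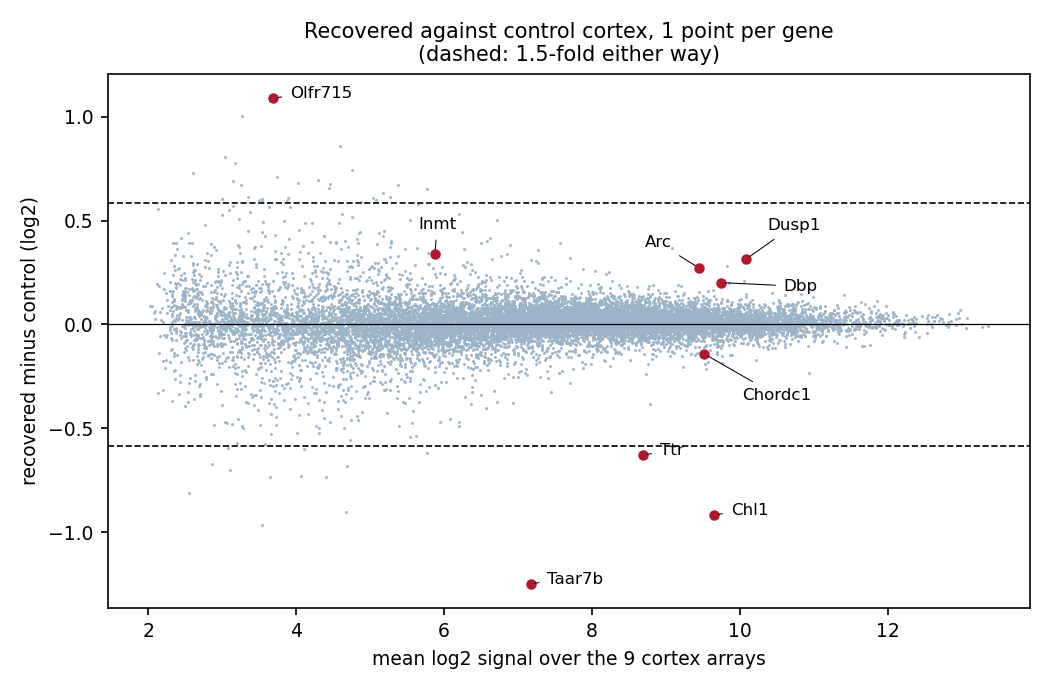
Recovered minus control log2 difference of each of 14807 genes (vertical axis) by its mean log2 signal over the 9 cortex arrays (horizontal axis), with dashed lines at 1.5-fold. The spread is widest at low signal, and Olfr715 (1.09) and Taar7b (-1.25) are the extremes.

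Among bright genes 1 had a difference beyond 1.5-fold with no overlap of the groups. Chl1, a neural cell adhesion gene of the L1 family, read 8.68, 8.74 and 9.99 in the recovered pools, against 10.03, 10.11 and 10.02 in the control pools. Recovered pools 1 and 2 lay more than 1 log2 unit below every control pool, and recovered pool 3 lay just under them. The difference was -0.92 ± 0.32 (95% interval -1.66 to -0.18, limma adjusted p = 1). It was -1.34 (adjusted p = 0.25) without recovered pool 3 and -0.69 without recovered pool 1, so single pools set its size. In sleep-deprived pools Chl1 read 10.03, 9.56 and 9.72. The other genes of the brighter 2 classes that were not held within 1.5-fold were Ttr, Drd2, the neuropeptide gene Tac1, Tma16, Gm16415, Bex1, the chemokine gene Ccl28 and Olfr666, which were named after their values were seen. Their standard errors lay between 0.14 (Olfr666) and 1.18 (Ttr), against a median of 0.059 over all genes.

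The gene nearest to a call was Dusp1, a phosphatase that switches off MAP kinases and is itself induced by neuronal activity and by glucocorticoids. Its log2 signal was 10.09, 10.07 and 10.11 in the recovered pools, against 9.73, 9.79 and 9.80 in the control pools. The recovered pools lay above all control pools, by more than the spread in either group. The difference was 0.32 ± 0.03 (1.24-fold, 95% interval 1.19 to 1.31), with a limma adjusted p of 0.0961. It was called in 3 of 19 alternative fits, at an adjusted p of 0.047 without the dimmest 30% of genes, 0.0328 with array weights and 0.023 with a mean-variance trend. Among limma fits without a call, its adjusted p was 0.0896 with quantile normalization and 0.658 with median centring. With only the 6 recovered and control arrays it was 0.929. In the sleep-deprived pools Dusp1 read 10.41, 10.40 and 10.42, above control (0.64 ± 0.03, adjusted p = 0.000223) and above recovered cortex, which was lower by -0.32 ± 0.03 (adjusted p = 0.00276). Both differences from control rest on the same control pools. Dusp1 was held within 1.5-fold but not within 0.32 log2 units of control.

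Activity-regulated effector genes, the list to which Dusp1 belongs, act at synapses and in signalling downstream of firing. Of 23 measured, 4 had an unadjusted p under 0.05 and lay higher in recovered cortex, 1 lay lower, and 0 passed the adjusted test. These 5 are 21.7% of the list, against 2.88% of all genes, and the median was 0.03 against 0.01 over all genes. The synaptic gene Arc read 9.11, 9.10 and 9.12 in the recovered pools, against 8.85, 8.89 and 8.76 in the control pools. The groups did not overlap, and the interval of its difference was 0.16 to 0.39, against 1.56 ± 0.05 in sleep-deprived cortex. Gpr3, a receptor that raises cyclic AMP without a ligand, read 8.20, 8.13 and 8.25 in the recovered pools, against 8.04, 7.97 and 7.81 in the control pools (0.25 ± 0.06). Sik1, a kinase of the cyclic AMP pathway, read 7.61, 7.65 and 7.65 in the recovered pools, against 7.48, 7.48 and 7.31 in the control pools (0.21 ± 0.06). In both genes each recovered pool lay above each control pool. Cdkn1a, a cell cycle inhibitor, was on the other side, at 7.69, 7.77 and 7.81 in the recovered pools, against 7.88, 7.89 and 8.01 in the control pools (-0.17 ± 0.07). All 23 members were held within 1.5-fold. Bdnf, which encodes a growth factor, had an interval of -0.15 to 0.15, and Homer1, a scaffold gene of synapses, one of -0.15 to 0.03.

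Immediate early transcription factors, the first genes transcribed after firing, gave 1 gene higher and 1 lower of 19 at an unadjusted p under 0.05. Their median difference was 0.02, and all 19 were held within 1.5-fold. The nuclear receptor gene Nr4a1 read 9.61, 9.67 and 9.78 in the recovered pools, against 9.62, 9.43 and 9.17 in the control pools. Its groups overlapped, and the difference of 0.28 ± 0.10 was 0.16 without control pool 3. Npas4, which organizes inhibitory synapses after activity, read 8.64, 8.69 and 8.69 in the recovered pools, against 8.77, 8.79 and 8.81 in the control pools (-0.12 ± 0.03). It lay below control in each recovered pool, whereas the sleep-deprived pools read 8.98, 9.07 and 8.99. Egr2, with a sleep deprivation difference of 1.28 ± 0.07, was 0.02 ± 0.07 from control after recovery, with an interval of -0.14 to 0.18. Intervals were -0.30 to 0.28 for Fos and -0.07 to 0.12 for Egr1. The widest interval of the list was that of Egr3, from -0.35 to 0.28.

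**Figure D3:**
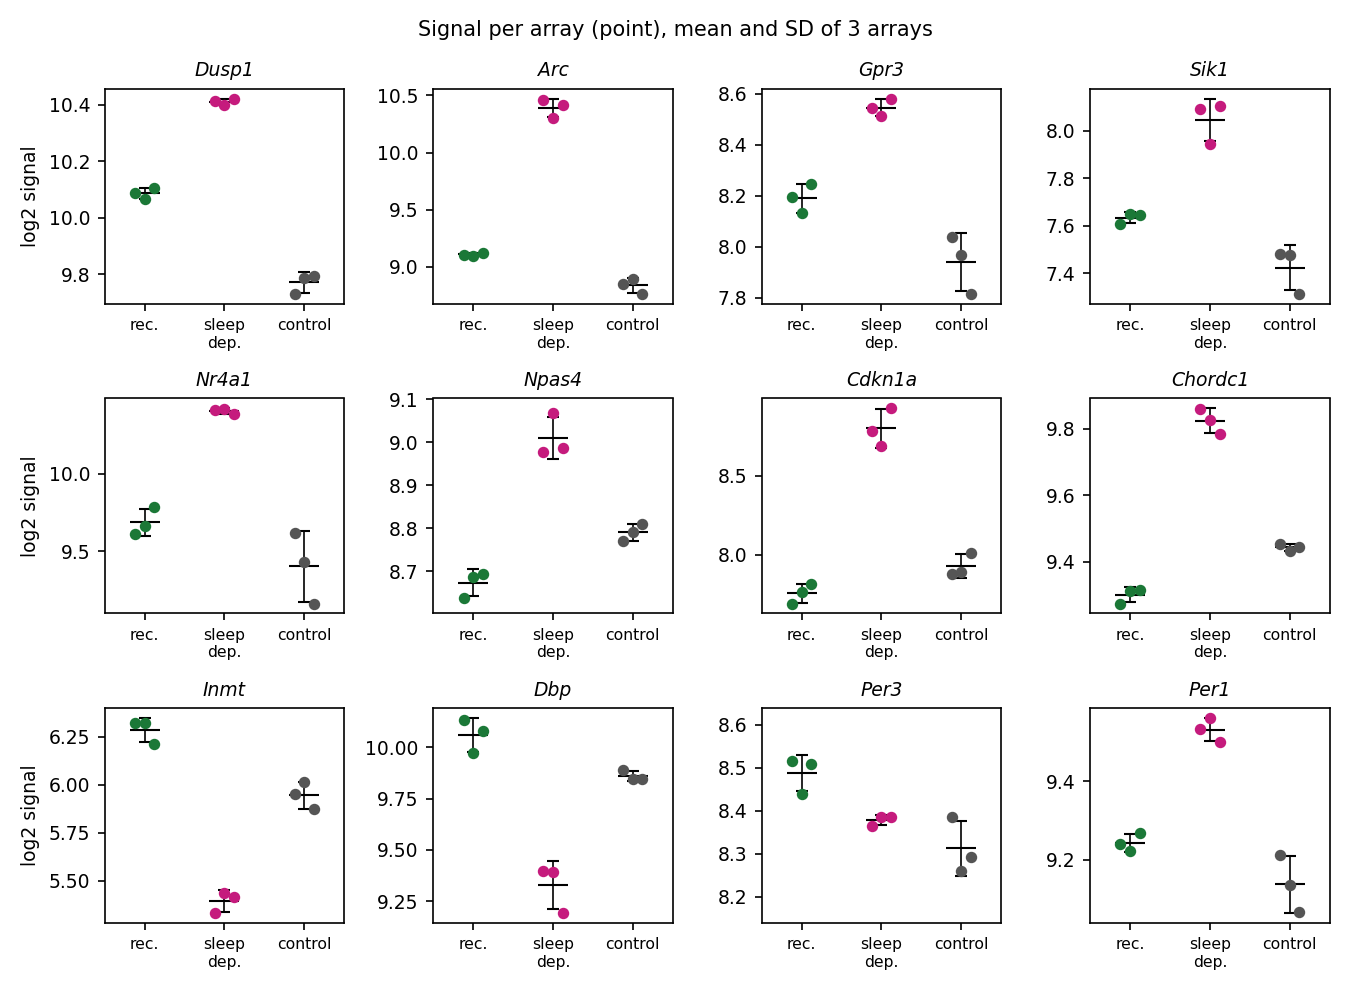
Log2 signal on each array (points) of 12 genes in recovered, sleep-deprived and control cortex, with the mean and SD of 3 arrays as bars; each panel has its own vertical axis, which does not start at 0. Recovered Dusp1 lies between the other groups, at 10.07 to 10.11, and recovered Chordc1 lies below control, at 9.28 to 9.32.

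Clock genes held the largest share of members at an unadjusted p under 0.05 among the pathway lists. Of 19 measured, 5 lay higher and 1 lower in recovered cortex (31.6%, against 2.88% of all genes). None of the 19 passed the adjusted test, and all were held within 1.5-fold, as were 96.2% of all genes. The median was 0.04. Per2 was not analysed here. Dbp, an output activator of the clock that binds D-boxes, read 10.13, 9.97 and 10.08 in the recovered pools, against 9.89, 9.84 and 9.84 in the control pools (0.20 ± 0.07). The sleep-deprived pools lay on the other side of control, at 9.40, 9.39 and 9.19. The repressor gene Per3 read 8.52, 8.44 and 8.51 in the recovered pools, against 8.38, 8.26 and 8.29 in the control pools (0.18 ± 0.04). Its sleep deprivation difference was 0.07 ± 0.04 and did not pass. The repressor gene Per1 read 9.24, 9.22 and 9.27 in the recovered pools, against 9.21, 9.13 and 9.07 in the control pools (0.11 ± 0.04). In Dbp, Per3 and Per1 the recovered pools lay above all control pools, though in Per1 the nearest pair was 0.01 apart.

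Tef, a relative of Dbp, was higher by 0.13 ± 0.05 and the repressor gene Cry1 by 0.08 ± 0.04. Clock, which encodes the activator, was lower by -0.08 ± 0.03, at 9.62, 9.61 and 9.65 in the recovered pools, against 9.71, 9.71 and 9.71 in the control pools. Recovered Tef overlapped with control, and Cry1 and Clock did not. The activators Arntl (-0.06 ± 0.05) and Npas2 (-0.07 ± 0.04) and the D-box repressor Nfil3 (-0.15 ± 0.07) had intervals that hold 0. So did Hlf, the other relative of Dbp (0.09 ± 0.04), and the repressors Bhlhe41 (0.10 ± 0.08), Nr1d2 (0.05 ± 0.04) and Bhlhe40 (0.0089 ± 0.06). Usp2, a deubiquitinase under clock control, was 0.0076 ± 0.04 from control after recovery and -0.36 ± 0.04 after sleep deprivation. Over 18 or 19 alternative fits the sign of the 6 genes with p under 0.05 was kept in each. The 6 were chosen by p in these same data, so this is no support. Only in Tef did the groups overlap, and in the others leaving a pool out could not change the sign. An unadjusted p under 0.05 was lost in 12 of 18 fits for Cry1, 9 of 19 for Per1, 7 of 19 for Clock, 4 of 18 for Tef, 2 of 18 for Dbp and 1 of 18 for Per3. The remaining members, Rora, Rorb, Csnk1d, Csnk1e and Fbxl21, had differences between -0.0012 (Rorb) and 0.06 (Fbxl21), with the widest interval of the list, -0.35 to 0.46, in Fbxl21.

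**Figure D4:**
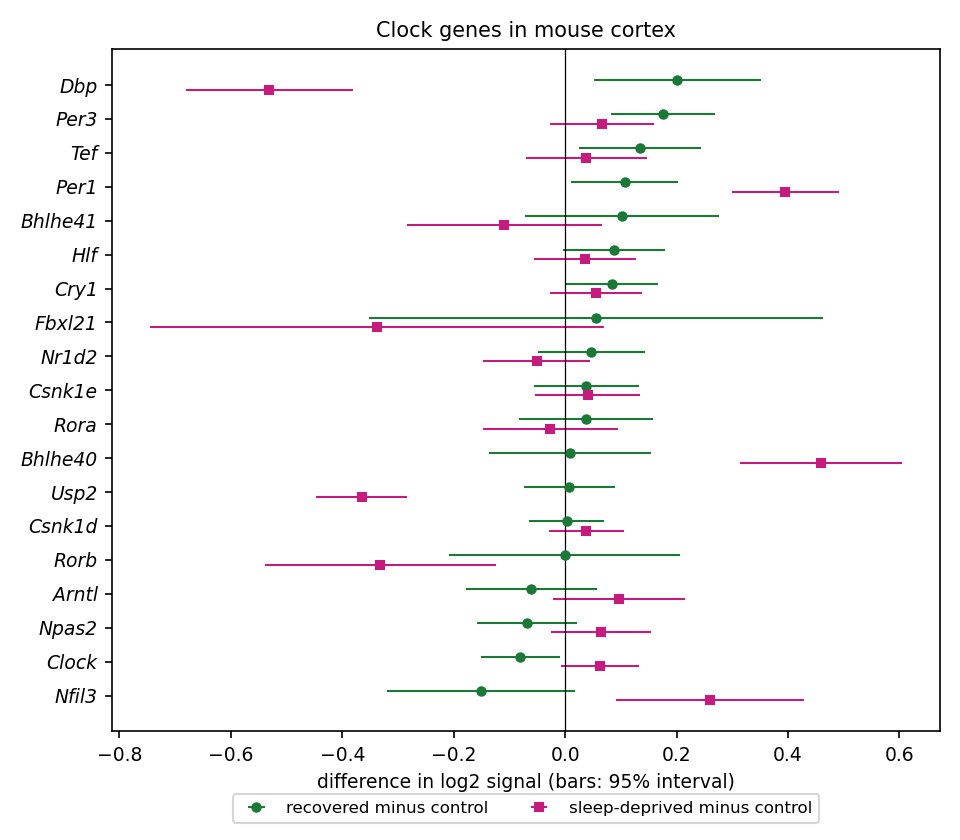
Log2 difference from control of 19 clock genes in recovered cortex (green circles) and sleep-deprived cortex (magenta squares), with 95% intervals of the limma fit; both use the same control pools. Dbp is the highest in recovered cortex (0.20) and lies at -0.53 in sleep-deprived cortex.

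Promoter sequence from RefSeq (GRCm38.p6) was available for 17 of the 19 clock genes, as 26 windows of 250 bases upstream of a start. The E-box CACGTG, which the CLOCK and ARNTL pair binds, reads the same on both strands. It was found in windows of Bhlhe41, Cry1, Per1 and Tef, though not in every window of Per1. The D-box TTATGTAA, searched on both strands, was found in the window of Per3. Over all 32851 windows of this length, 6.02% held the E-box and 0.819% the D-box. These are shares of windows, whereas the clock genes are named per gene, some with several windows. The windows of the 4 genes with p under 0.05 that held a motif are shown 5′ to 3′ on the gene's strand, with the motif in capitals, since they carry the elements through which the clock is known to act.
Per3 (chr4:151044666-151044915, minus strand): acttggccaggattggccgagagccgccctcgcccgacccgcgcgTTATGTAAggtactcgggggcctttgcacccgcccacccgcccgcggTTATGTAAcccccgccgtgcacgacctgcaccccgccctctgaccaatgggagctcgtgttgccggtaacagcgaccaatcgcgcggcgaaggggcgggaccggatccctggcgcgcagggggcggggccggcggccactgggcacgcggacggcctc
Per1 (chr11:69098699-69098948, plus strand): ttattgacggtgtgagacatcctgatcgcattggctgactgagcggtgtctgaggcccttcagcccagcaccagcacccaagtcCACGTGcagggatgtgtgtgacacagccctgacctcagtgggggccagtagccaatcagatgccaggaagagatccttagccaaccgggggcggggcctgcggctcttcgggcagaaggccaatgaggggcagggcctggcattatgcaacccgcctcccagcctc
Cry1 (chr10:85185055-85185304, minus strand): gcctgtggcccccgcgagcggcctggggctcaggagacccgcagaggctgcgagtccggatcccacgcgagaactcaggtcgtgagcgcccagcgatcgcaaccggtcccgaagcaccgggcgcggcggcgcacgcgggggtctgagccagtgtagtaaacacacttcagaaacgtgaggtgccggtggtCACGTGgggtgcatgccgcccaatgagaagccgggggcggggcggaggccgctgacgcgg
Tef (chr15:81811164-81811413, plus strand): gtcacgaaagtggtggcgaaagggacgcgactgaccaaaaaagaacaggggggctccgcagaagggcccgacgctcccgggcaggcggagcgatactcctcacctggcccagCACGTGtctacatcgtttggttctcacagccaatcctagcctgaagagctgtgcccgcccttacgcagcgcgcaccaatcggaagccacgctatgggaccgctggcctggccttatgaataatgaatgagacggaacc
The first base of the E-box lay 166 bases upstream of the start in Per1, 60 in Cry1 and 138 in this window of Tef, whose other window held one at 127, and the D-boxes of Per3 began 205 and 158 bases upstream. The other window of Per1, the single window of Dbp and the 3 windows of Clock held neither string. Elements outside the windows were not searched.

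Chaperones of the endoplasmic reticulum, which fold secreted and membrane proteins, were measured in 21 genes. Of these, 0 had an unadjusted p under 0.05, the median was -0.0064, and all 21 were held within 1.5-fold, 20 of them within 0.32 log2 units. Against control, 9 of the 21 had risen in sleep-deprived cortex. Hspa5, the main chaperone of this compartment, read 9.99, 9.98 and 10.15 in the recovered pools, against 10.18, 10.06 and 9.90 in the control pools (interval -0.18 to 0.17). The groups overlapped. Its partner Sdf2l1 had an interval of -0.10 to 0.23, against a sleep deprivation difference of 0.82 ± 0.07. The members with the smallest p were Dnajb9 (-0.07 ± 0.04), the stress factor Ddit3 (0.17 ± 0.11) and Edem1 (0.09 ± 0.07).

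Among 10 cytosolic and mitochondrial chaperones, 1 lay lower at an unadjusted p under 0.05 and 9 were held within 1.5-fold. Chordc1, which encodes a partner protein of HSP90, read 9.28, 9.31 and 9.32 in the recovered pools, against 9.45, 9.43 and 9.45 in the control pools. It was below control in each recovered pool (-0.14 ± 0.03), and above control in sleep-deprived cortex (0.38 ± 0.03, adjusted p = 0.00179). The median of the list was -0.04. Dnajb5, another member with a sleep deprivation rise (0.51 ± 0.04), was -0.07 ± 0.04 from control after recovery, with an interval that holds 0. Hsp90aa1 was the member not held within 1.5-fold, with an interval of -0.94 to 0.51 at a log2 signal of 3.53 to 4.70 in recovered cortex.

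Glucocorticoid-responsive genes, which stress hormones induce, counted 20 measured members, of which 10 had risen with sleep deprivation. In recovered cortex 2 lay higher and 1 lower at an unadjusted p under 0.05, and these 3 (Dusp1, Per1 and Cdkn1a) also belong to the lists above. The median of the list was 0.05, and all 20 were held within 1.5-fold. Fkbp5, a partner of the glucocorticoid receptor, had an interval of -0.19 to 0.31, Sgk1, a kinase, one of -0.16 to 0.12, and Tsc22d3, an anti-inflammatory leucine zipper gene, one of -0.12 to 0.23. These 3 had sleep deprivation differences of 0.64, 0.41 and 0.69 on the log2 scale.

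The RNA-binding proteins that respond to temperature gave 0 of 10 at an unadjusted p under 0.05. Cirbp, which cold induces, read 9.09, 9.10 and 9.14 in the recovered pools, against 8.98, 8.96 and 8.89 in the control pools. All recovered pools lay above all control pools, and the interval of -0.02 to 0.35 holds 0. Sleep-deprived pools read 8.12, 8.41 and 8.09. Rbmx, an RNA-binding protein of splicing, was 0.08 ± 0.04 from control, and all 10 members were held within 1.5-fold.

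Of the 17 pathway lists, 9 held 0 members at an unadjusted p under 0.05. Over all 17 lists together, 17 of 279 genes had such a p, against 2.88% of all genes, and 276 were held within 1.5-fold, against 96.2% of all genes. No such member was found among 20 presynaptic genes (median 0.02), 14 postsynaptic genes (0.0057), 16 respiratory chain genes (0.04), 8 protein synthesis factors (0.03), 21 inflammatory genes (0.01), 20 extracellular matrix genes (-0.01) or 16 cholesterol synthesis genes (0.04). All were held within 1.5-fold except the cholesterol gene Fdps, at an interval of -0.08 to 0.85. The potassium channel gene Kcnj2 lay lower (-0.23 ± 0.09) of 17 channel genes, the histamine receptor gene Hrh3 higher (0.15 ± 0.06) of 16 arousal receptor genes, and the glycolytic enzyme gene Pfkm higher (0.10 ± 0.03) of 13 genes of glycolysis and lactate transport.

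Markers of cell types were counted in the same way. Over 14 lists, 2 of 139 genes had an unadjusted p under 0.05, C1qb, a complement gene of microglia (0.10 ± 0.04), and Alas2, a haem synthesis gene of red blood cells (-0.13 ± 0.05), and 135 were held within 1.5-fold. Over all genes the shares were 2.88% and 96.2%. All members were held within 1.5-fold among 10 astrocyte, 11 oligodendrocyte, 9 oligodendrocyte precursor, 13 microglial, 11 excitatory neuron, 11 interneuron, 9 immature neuron, 13 endothelial, 11 pericyte and smooth muscle, 10 meningeal and 4 blood cell genes. The list means of excitatory neurons were 9.93 to 10.00 log2 units in the recovered pools, against 9.91 to 9.97 in the control pools. Those of astrocytes were 9.80 to 9.88 in the recovered pools, against 9.80 to 9.83 in the control pools. Opalin, a myelin gene that had fallen with sleep deprivation (-0.84 ± 0.06), was -0.03 ± 0.06 from control, and Dcx, a gene of young neurons with a fall of -0.62 ± 0.03, was 0.04 ± 0.03. The exceptions were Ttr of 7 choroid plexus genes, Drd2 and Tac1 of 9 striatal and hippocampal genes, and Mki67 of 12 genes of dividing cells (interval -0.82 to 0.36). The striatal and hippocampal list averaged 7.91 to 8.50 log2 units in the recovered pools, against 8.35 to 8.44 in the control pools, with recovered pool 2 the lowest. The part of unequal dissection in the differences above was not tested.

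The 241 genes that limma had called in sleep-deprived against control cortex were then followed into recovery. Their differences after recovery rest on the same control pools as the calls that chose them, so their counts are a description. The interval of recovered minus control held 0 for 208 of them, 88 of the 107 that had risen and 120 of the 134 that had fallen. For 176 genes it lay wholly below 50% of the sleep deprivation difference, and for 65 it reached 50% or more. In Icam2, an adhesion gene of endothelium, and Timp3, an inhibitor of matrix proteases, the interval held the whole sleep deprivation difference. Icam2 was 0.16 ± 0.05 from control in recovered cortex and 0.28 ± 0.05 in sleep-deprived cortex, and Timp3 0.11 ± 0.03 and 0.16 ± 0.03. Of the 241 genes, 240 were held within 1.5-fold after recovery. The exception was the dim odorant receptor gene Olfr1444, at 3.18, 3.31 and 3.29 in the recovered pools, against 2.74, 2.75 and 2.58 in the control pools.

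For 33 of the 241 genes the interval lay off 0 after recovery, which is an unadjusted p under 0.05, as 2.88% of all genes had. Since the 241 were called against the same control pools, the share they would show with no change is not known from that value. Among genes that had risen, 15 of these were higher than control and 4 lower, and among genes that had fallen, 7 were higher and 7 lower. The 15 include Dusp1, Arc, Gpr3, Sik1, Nr4a1 and Per1, described above, and Tm6sf2, which encodes a membrane protein of lipid transport in liver. Tm6sf2 read 7.28, 7.21 and 7.29 in the recovered pools, 7.71, 7.82 and 7.77 in the sleep-deprived pools and 7.01, 7.06 and 7.03 in the control pools (0.23 ± 0.04 for recovered minus control). It lay between the other groups on every array. The 4 that had risen and lay below control after recovery were Chordc1, Npas4, Cdkn1a and the deubiquitinase gene Otub2 (-0.19 ± 0.06).

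Among genes that had fallen, Inmt, an enzyme that methylates indoles such as tryptamine, lay above control after recovery. It read 6.32, 6.32 and 6.21 in the recovered pools, against 5.95, 6.01 and 5.87 in the control pools (0.34 ± 0.05, adjusted p = 0.848). The sleep-deprived pools read 5.33, 5.44 and 5.42, so the 3 groups did not overlap. Dbp was another of these 7, with the organic anion transporter gene Slc22a8 (0.09 ± 0.03), Rbm11 (0.15 ± 0.04), Sh2d3c (0.13 ± 0.04), Smim19 (0.13 ± 0.04) and Vwa3a (0.11 ± 0.05). The 7 that had fallen and still lay below control were the splicing regulator gene Mbnl3 (-0.16 ± 0.04), Nectin3, a cell adhesion gene (-0.09 ± 0.03), P2ry13, a microglial purine receptor gene (-0.08 ± 0.03), Sepsecs, Gtpbp8, Myadml2 and 4930429B21Rik. Mbnl3 read 4.67, 4.74 and 4.67 in the recovered pools, against 4.79, 4.90 and 4.88 in the control pools.

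Of the 20 genes with the 10 largest rises and 10 largest falls among the 241, Arc, Nr4a1, Olfr1444, Tm6sf2 and Cdkn1a had intervals off 0 after recovery, and the other 15 had intervals that hold it. Cd180, an immune cell receptor gene and the largest fall among the 241 (-1.06 ± 0.08), read 6.98, 7.26 and 7.09 in the recovered pools, against 7.05, 7.05 and 7.24 in the control pools. The groups overlapped, and the interval was -0.19 to 0.18. The phosphatase gene Dusp4 (0.10 ± 0.09), the melanocortin receptor gene Mc4r (-0.05 ± 0.09) and the phospholipase gene Pla2g4e (0.0014 ± 0.08) overlapped with control. So did Cstad (0.13 ± 0.12), Ankrd34c (-0.09 ± 0.11), the hormone receptor gene Pth2r (-0.11 ± 0.09), Rasl11b (-0.07 ± 0.05) and Sytl2 (0.04 ± 0.03).

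**Figure D5:**
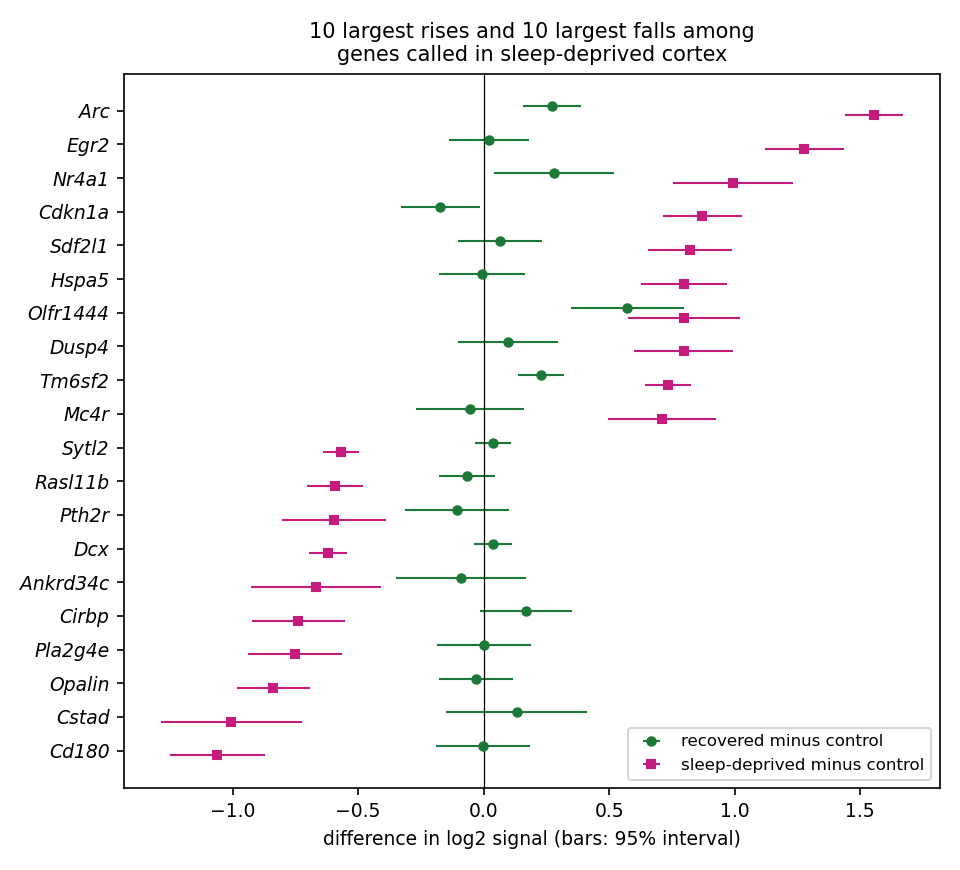
Log2 difference from control, with 95% intervals, of the 10 largest rises and 10 largest falls among the 241 genes called in sleep-deprived cortex, in recovered cortex (green circles) and sleep-deprived cortex (magenta squares); both use the same control pools. Recovered Arc (0.27) lies off 0 while Egr2 (0.02) and Cd180 (-0.0034) lie on it.

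Several genes low in p in recovered cortex had not been called with sleep deprivation, though some differed from control in the same direction there. On the higher side these were Apoa2, an apolipoprotein gene (0.33 ± 0.05), the prolactin family gene Prl7c1 (0.45 ± 0.07), Mpst, a sulfurtransferase gene (0.23 ± 0.04), the odorant receptor genes Olfr308 (0.71 ± 0.13) and Olfr788 (0.23 ± 0.05), the cytokine gene Il21 (0.18 ± 0.04) and Rps20, a ribosomal protein gene (0.37 ± 0.08). Apoa2 read 7.03, 6.86 and 6.88 in the recovered pools, against 6.61, 6.63 and 6.55 in the control pools. Rps20, at 9.20, 9.17 and 9.31 in the recovered pools, against 8.78, 8.77 and 9.03 in the control pools, has processed copies in the genome whose transcripts its probes could share, so its value is uncertain. In all of these genes the groups did not overlap, as in all 12 genes with the smallest p on this side. They were chosen by p in these same data, so this sets none of them apart. In sleep-deprived against control cortex the differences were 0.20 (Apoa2), 0.25 (Prl7c1), 0.29 (Olfr308), 0.30 (Rps20), 0.05 (Olfr788), 0.05 (Il21) and -0.06 (Mpst).

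On the lower side were 4930451E10Rik (-0.32 ± 0.06), Fndc9 (-0.47 ± 0.09), the glutathione transferase gene Gstm2 (-0.40 ± 0.08), Olfr483, Olfr116 (-0.34 ± 0.07), AI467606 (-0.33 ± 0.08), Neto2, an auxiliary subunit of kainate receptors (-0.17 ± 0.04), Uhrf1, a factor of DNA methylation upkeep (-0.27 ± 0.07), Kctd6 (-0.14 ± 0.04) and Aanat, an enzyme of melatonin synthesis (-0.13 ± 0.03). Gstm2 read 6.53, 6.39 and 6.35 in the recovered pools, against 6.94, 6.65 and 6.88 in the control pools. It belongs to a family of similar genes, and its probes may read more than 1 of them. Neto2 read 10.16, 10.02 and 10.12 in the recovered pools, against 10.22, 10.31 and 10.28 in the control pools. Sleep-deprived cortex differed from control by -0.37 in Gstm2, -0.27 in 4930451E10Rik, -0.28 in Olfr116, -0.42 in Olfr483, -0.12 in Kctd6 and -0.11 in Uhrf1. The values were -0.06 in Fndc9, -0.03 in AI467606, -0.03 in Aanat and 0.02 in Neto2. These differences rest on the same control pools as those of recovered cortex. Of the 24 genes with the smallest p, 12 on each side, 11 were in the dimmest class, where signal may be near background. On the higher side these were Prl7c1, Olfr1444, Olfr308, Il21 and Olfr788. On the lower side they were Olfr483, Olfr116, AI467606, Mbnl3, Uhrf1 and Aanat. Whether these probe sets measured a transcript in cortex was not tested. The lowest limma adjusted p after that of Dusp1 was 0.848.

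Probe sets without exactly 1 gene symbol were tested apart. Of 8299, 0 were called (limma, smallest adjusted p = 0.327), and 321 had an unadjusted p under 0.05 (3.87%). Only 3980 of the 8299 were held within 1.5-fold, a much smaller share than the 96.2% of named genes. Their median log2 signal was 6.11, against 7.36 for the named genes. Yet in the class of named genes next above the dimmest, with a median of 6.56, 98.4% were held within 1.5-fold. The cause of the smaller share was not tested.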

How the data were processed

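The deposited table held log2 values that the authors had made with RMA, per the submitters' processing notes. Its version and settings, and whether all arrays were normalized as 1 set, are not given in these sources. RMA removes background, makes arrays comparable and gives 1 value for each probe set. Each array received pooled RNA of 3 mice, per the labels. Precision is limited by how many arrays there are.

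Of 23238 probe sets, 14939 had 1 gene symbol, 989 several and 7310 none in the platform annotation. For a gene with several probe sets the brightest on average across 18 arrays stood for it, which gave 14807 genes. Entrez IDs of 14884 probe sets matched a RefSeq table (GRCm38.p6), used for names, and 0 symbols changed. No gene was removed for low signal.

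The 9 cortex arrays were fitted by lmFit and eBayes of limma 3.58.1, run under R 4.3.3 (group as the only factor, 7.85 degrees of freedom), two-sided, with Benjamini-Hochberg adjustment over all genes. Errors are standard errors of the fit. Bounds were tested with 2 one-sided moderated tests, adjusted likewise. The fit was tested on simulated data. Alternatives were other array sets, scalings, filters, weights, a variance trend, the mean of a gene's probe sets, the pool number as a block and each pool left out in turn.

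The genes named are the 12 with the smallest p and the 5 with the largest difference on each side, the 10 largest rises and 10 largest falls with sleep deprivation, anchor genes, members of the lists with an unadjusted p under 0.05 or otherwise among the 4 smallest, all clock genes and the member with the widest interval. Not all list members are named, and genes of the 33 with intervals off 0, and bright genes with wide intervals, were named after their values were seen. The members, lists and naming rule were chosen with earlier results of these data known.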

Additional observations from a re-analysis of the deposited data

How the results depend on the processing

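The number of arrays, 3 a side, and the dim signal of many probe sets limit what could be bounded. The call count of 0 became 1, Dusp1 each time, without the dimmest 30% of genes, with array weights and with a mean-variance trend, and it was 0 in the other 16 fits; the cause was not tested. The count at an unadjusted p under 0.05 was 427, and changed to 185 in a model of all 18 arrays, 1217 with array weights and 360 to 800 with a pool left out. It was 270 of 10365 genes without the dimmest 30% and 216 of the 6663 genes with no equal values, an alternative chosen after seeing the data, where fewer genes were tested; 6147 of those 6663 were held within 1.5-fold. With a pool left out, 14006 to 14288 genes were held within 1.5-fold, and 194 to 215 of the 241 genes had intervals that hold 0. The distance of recovered from control arrays beyond that within groups was -0.0053 to 0.0015 with a pool left out, and turned positive without recovered pool 2 (0.0015). Pool numbers were not treated as pairs in the main fit. Over the 3 cortex groups, deviations of same-numbered arrays correlated at -0.102 to 0.101 over 9 pairs. Those of different numbers correlated at -0.14 to 0.116 over 18. Between recovered and control arrays the ranges were 0.0202 to 0.081 over 3 same-numbered pairs and -0.0902 to 0.0744 over 6 others. So few pairs cannot exclude a pairing. With the pool number as a replicate block 0 genes were called and 466 had an unadjusted p under 0.05. Under these alternatives the 24 genes with the smallest p and the 10 with the largest differences kept their sign. All were chosen by these same values, so the kept sign is no support. The groups of the 24 did not overlap, so leaving a pool out could not change their sign. Drd2 turned to 0.06 without recovered pool 2.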

Other observations

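Equal values on different arrays were frequent in the deposited table. Of 14807 genes, 347 had 1 value on all 3 recovered pools, 427 on all 3 sleep-deprived pools, 558 on all 3 control pools and 21 on all 9 cortex arrays. Genes with any equal value among the 9 arrays numbered 8144, of which 158 had an unadjusted p under 0.05 in recovered against control cortex (1.94%), against 269 of the 6663 genes with 9 different values (4.04%). Their median log2 signals were 7.16 and 7.68. Among genes named above, Sepsecs read 6.99 on all 3 recovered pools, and the clock activator Npas2 read 10.44 on all 3 control pools.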
